A study of Caenorhabditis elegans with 2 samples.

Results

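Of the 5560 peaks of tagged RNT-1 in the authors' optimal list, 691 lay within introns and away from any annotated promoter, a share of 12.4% (95% interval 11.6% to 13.3%). Intervals on shares are Clopper-Pearson intervals, which are exact, and allow for counting error alone. The peaks were chosen by the position of the summit alone. The summit had to fall inside the body of a protein-coding gene, in no annotated exon of any gene and not within 1 kb upstream of any protein-coding transcript start. It also had to lie over 500 bp from the start of every tRNA, snoRNA and snRNA gene. Signal played no part in the choice, and the positions were read against the Ensembl WBcel235 annotation on the ce11 assembly. Promoters held 2923 peaks of the list and intergenic sequence outside promoters held 1152.

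The data are anti-GFP chromatin immunoprecipitation and sequencing (ChIP-seq) from whole Caenorhabditis elegans hermaphrodites at the first larval stage (L1). The animals were starved after bleaching and taken 6 h post synchronization. All came from strain OP462, unc-119(tm4063) III; wgIs462, in which the transgene wgIs462 supplies RNT-1 fused to GFP and FLAG, so what was measured is the tagged protein of 1 transgenic line. There was 1 group of 2 biological replicates and no second condition, so comparisons can be made among genomic regions and between the replicates. Tissues were not separated, and a region occupied in a few cells cannot be told apart from a region weakly occupied in many. Depth is unknown from region lists, and signal is the authors' own value on a scale that the sources used here do not give.

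RNT-1 is the only RUNX-type transcription factor of the worm, known from genetic work on the dividing seam cells of the epidermis. RUNX proteins bind DNA with a CBF-beta partner, BRO-1 in the worm, at a short core read as TGTGGT or TGCGGT. Worm introns are mostly short, and the long ones are where enhancers and internal promoters of a gene are often found. Many worm genes have several annotated starts, so an intron of a long transcript can lie upstream of a shorter one.

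The RUNX core was near the summit of 2 of the 15 strongest intronic peaks, a share close to the 10.1% of all intronic peaks. A summit window here reaches 50 bp to either side of the summit and is written on the plus strand of ce11. The windows below belong to the intronic peaks ranked 4 to 6 by signal. None holds a RUNX core. Capitals mark the repeat GAGAGA, which reads as TCTCTC from the other strand, and the octamer CTGCGTCT, which holds 2 of the 5 leading 6-mers and was chosen after their values were seen. Neither lies in the windows of the 3 strongest intronic peaks, in Y56A3A.7, Y41G9A.17 and mom-1.
pqn-41, chrIII:1926556-1926656: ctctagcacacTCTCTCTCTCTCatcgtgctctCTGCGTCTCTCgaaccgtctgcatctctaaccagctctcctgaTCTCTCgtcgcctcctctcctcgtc
epg-9, chrIV:2602114-2602214: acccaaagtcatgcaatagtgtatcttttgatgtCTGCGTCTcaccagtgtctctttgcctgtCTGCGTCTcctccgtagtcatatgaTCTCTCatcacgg
Y111B2A.12, chrIII:12612609-12612709: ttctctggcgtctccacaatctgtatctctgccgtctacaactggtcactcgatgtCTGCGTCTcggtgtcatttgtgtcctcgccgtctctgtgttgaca

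A RUNX core lay in the window of 70 of the 691 peaks. The sites below are from named hosts with such a peak, in order of the signal of the peak that holds them, which is not always the strongest of its host. The coordinates of each are given on ce11 with its strand, and each is turned so that the core, in capitals, reads 5′ to 3′ with 8 bases on either side. They show the range of flanks around the core, from the strongest intronic peak with a match, in W06H8.6, to lin-42.
W06H8.6, chrV:6224645-6224666, minus strand: aggaggtcTGTGGTggcctttg
C05D9.4, chrX:1109109-1109130, plus strand: tgatgcttTGTGGTttgtcggg
pqn-41, chrIII:1921409-1921430, plus strand: actgtggaTGTGGTgcactcgc
nhr-19, chrII:9601823-9601844, plus strand: cacgtgtgTGTGGTtctcgcag
col-72, chrII:3523692-3523713, minus strand: tgtgtcgtTGCGGTgtttgcgt
unc-43, chrIV:10341836-10341857, plus strand: gacaaaagTGCGGTgtgtgctc
hlh-30, chrIV:4026009-4026030, minus strand: ctctgacgTGTGGTagtggtgg
let-2, chrX:16387341-16387362, plus strand: atttatctTGTGGTttttttgc
lag-1, chrIV:6097730-6097751, plus strand: atcttcggTGTGGTtggggggt
unc-52, chrII:14670326-14670347, plus strand: agtcatgcTGCGGTtgatcggg
lin-42, chrII:1242665-1242686, plus strand: tattagtgTGTGGTgccagcct

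The W06H8.6 core lies 7 bp from its summit, and that of lag-1 lies at 0 bp from the summit of the weaker of the 2 lag-1 peaks, which had 126 in replicate 1 and 76.2 in replicate 2. That of C05D9.4 lies 38 bp away, near the edge of its window.

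The intronic peaks were weaker than the list as a whole. Their median signal was 139, with quartiles of 95.6 and 240, against 174 for all peaks, 202 for promoter peaks and 151 for intergenic peaks. They ran from 71.6 to 2383. The optimal list ends where the signal of the pooled candidates drops below it, and the strongest intronic candidate left out had 71.4. Of the 691 regions, 490 had the median width, and the widths ran from 54 to 500 bp.

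Y56A3A.7, a gene for which no role is given here, held the strongest intronic peak, with a signal of 1294 in replicate 1 and 1098 in replicate 2 (1196 ± 138, SD, n = 2). It lies in intron 3 of 11, 247 bp long, 462 bp downstream of the start. The next strongest was in the last intron of Y41G9A.17, with 1099 and 961 (1030 ± 97.8, SD, n = 2). The replicates of both peaks lie far above the median replicate signals of the intronic peaks, which were 77.2 in replicate 1 and 69.4 in replicate 2. mom-1, which encodes a Porcupine-type enzyme needed to secrete Wnt proteins, held a peak of 683 and 578 (631 ± 74.3, SD, n = 2) in its last intron. The strongest peak of pqn-41, a gene for a glutamine-rich protein, had 609 and 536 (572 ± 51.2, SD, n = 2). That of epg-9, an autophagy gene, had 537 and 556 (547 ± 13.3, SD, n = 2), the only one of these 5 that was higher in replicate 2. The other hosts among the 15 strongest were Y111B2A.12, the nuclear hormone receptor gene nhr-19, W06H8.6, zfp-1, C05D9.4, unk-1, ldb-1 and ints-8. zfp-1 encodes a chromatin protein of the AF10 type, ldb-1 a LIM-domain-binding cofactor and ints-8 a subunit of the Integrator complex.

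Most intronic peaks were found in both replicates, but less often than peaks elsewhere. Of the 691, 488 had a summit inside one of the 5560 strongest regions of each replicate, or 70.6% (67.1% to 74.0%), against 76.7% of all 5560 peaks. The share was 81.3% for promoter peaks and 72.6% for intergenic peaks. The gap was smaller among peaks of like signal and differed in direction. From the strongest to the weakest 20% of the list, the share was 98.6%, 90.1%, 92.7%, 77.3% and 19.9% of the intronic peaks. Over all peaks it was 98.5%, 94.2%, 95.7%, 76.5% and 18.7%, so the intronic peaks were below all peaks in the groups at 90.1% and 92.7%. Most of the weakest intronic peaks were thus outside the strongest regions of at least 1 replicate.

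At the 633 intronic peaks with a region in both replicates the signals ranked alike, with Spearman's rho of 0.776 and Pearson's r of 0.940. Over all peaks the values were 0.870 and 0.976. These describe regions of the same libraries and have no test. The median coefficient of variation between replicates was 17.8%, against 15.6% over all peaks. In 69 of the 633 peaks (10.9%) the replicates differed by over 2-fold, 56 of them higher in replicate 1 and 13 higher in replicate 2. Over all peaks that share was 8.01%. The widest ratio was in ifbp-1, at 25.5 and 136, and the next in brc-1, the worm BRCA1 gene, at 91.7 and 19.1. R02F2.1, the kinase gene dlk-1 and sea-2 completed the widest 5, and all 3 were higher in replicate 1.

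**Figure D1:**
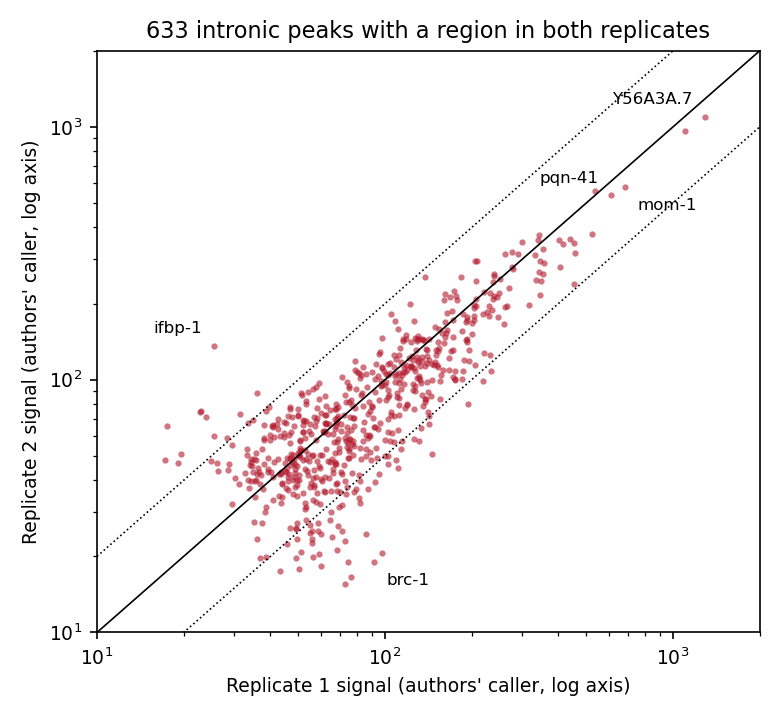
Signal of the 633 intronic peaks that had a region in both replicates, replicate 1 on the horizontal and replicate 2 on the vertical axis, both logarithmic and in the authors' units. The solid line marks equal signal and the dotted lines a 2-fold difference. The strongest peaks, such as Y56A3A.7 and mom-1, lie close to the solid line, and ifbp-1 and brc-1 lie outside the dotted lines among the weak peaks.

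The summit lay in no region of replicate 1 for 25 intronic peaks and in no region of replicate 2 for 34, and 1 peak was in both counts. Most of these had a neighbouring region: another summit of that replicate lay within 300 bp in 19 of the 25 and in 25 of the 34. The strongest, in gcn-1 with a pooled signal of 363, had 157 in replicate 1, and replicate 2 had a summit of signal 206 at 21 bp. In lag-1, the CSL-type transcription factor of Notch signalling, the pooled signal was 329 and replicate 2 gave 161. Replicate 1 had a summit of 166 only 7 bp away, in a region that ended short of the pooled summit. unc-94, akap-1, C35B1.2 and ppfr-1 were of the same kind, with summits at 19 to 40 bp.

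Intronic peaks were concentrated in long introns. The eligible sequence, meaning all bases that meet the same position rule, covers 27.4 Mb or 27.3% of the genome, and held 25.2 peaks per Mb. Promoters held 130.5 peaks per Mb over 22.4 Mb. The median intron around an intronic peak was 3333 bp long, whereas the median eligible base lay in an intron of 907 bp. Density was higher at every step of length, from 7.98 peaks per Mb in introns up to 500 bp (66 peaks) to 76.3 per Mb in introns over 10000 bp (97 peaks). Introns of 2000 to 5000 bp held the most peaks, 208, at 52.2 per Mb.

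Candidate regions below the threshold of the optimal list showed no such order. The pooled candidate list holds 30000 regions, of which 24440 are below the threshold, and 4304 of those met the same position rule. Their density was 199.8 per Mb in introns up to 500 bp and 214.8 per Mb in introns over 10000 bp, with the lowest value, 96.1 per Mb, at 1000 to 2000 bp. Of every 100 intronic candidates, 3.84 were in the optimal list in the shortest introns and 26.2 in the longest. The median signal of the intronic peaks had no such order, with the lowest value, 115, at 1000 to 2000 bp and the highest, 144, at 2000 to 5000 bp.

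**Figure D2:**
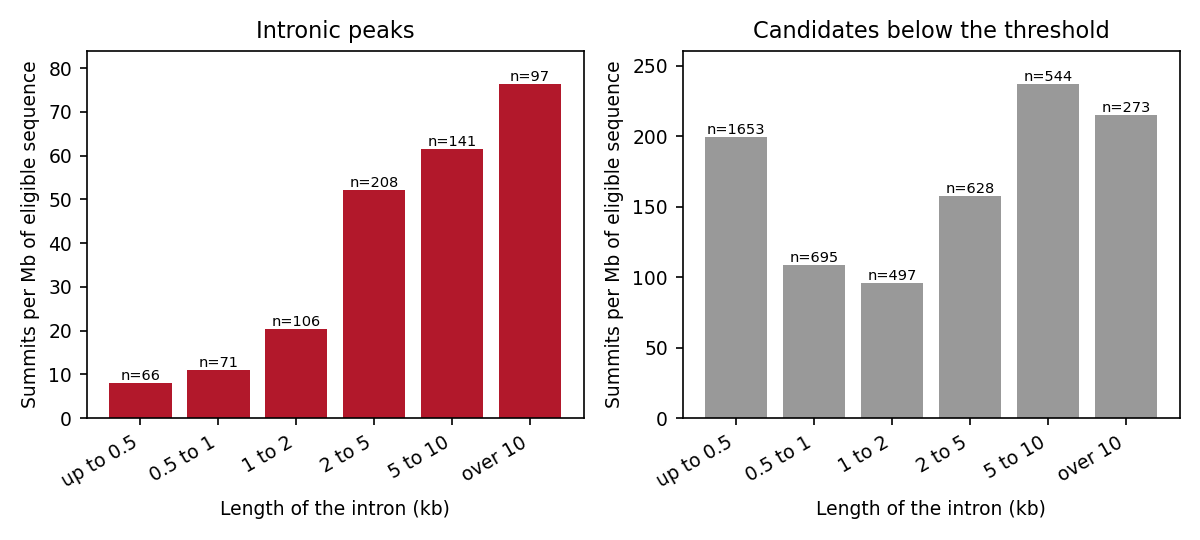
Summits per Mb of eligible intron sequence (vertical axis) by the length of the intron in kb (horizontal axis), for the intronic peaks on the left and for intronic candidates below the threshold on the right, with the number of summits over each bar. Peaks go from 7.98 to 76.3 per Mb with length, and the candidates from 199.8 to 214.8 per Mb with a low of 96.1.

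First introns, counted in the longest transcript that covers the summit, held 228 of the 689 peaks with an intron assigned, or 33.1% (29.6% to 36.7%). They make up 22.7% of the eligible bases and held 23.4% of the candidates below threshold. Long introns are more often first introns, and within classes of intron length the shares differed in either direction. Peaks had the higher share up to 500 bp (21.2% against 16.8% of bases), at 1000 to 2000 bp (25.5% against 17.9%), at 2000 to 5000 bp (38.5% against 29.6%) and, narrowly, at 5000 to 10000 bp (41.8% against 40.2%). Peaks had the lower share at 500 to 1000 bp (8.45% against 18.5%) and above 10000 bp (43.3% against 48.5%). The median signal was 129 in first introns and 143 in later ones.

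A later start of the same gene lay downstream of 394 of the 689 peaks, 57.2% (53.4% to 60.9%), against 22.9% of eligible bases and 29.0% of candidates below threshold. Within each class of intron over 1000 bp the share of peaks was above that of bases. At 1000 to 2000 bp it was 33.0% against 16.7%, at 2000 to 5000 bp 68.3% against 42.5%, and in introns over 10000 bp 93.8% against 84.4%. In introns of 500 to 1000 bp it was 5.63% against 8.32%. The stretch 1 to 2 kb before a later start, just beyond the promoter window, held 18.6% of the peaks and 6.49% of the bases. Candidates below threshold had 9.11% there. Among those with a later start, the stretch held 128 of 394 peaks, 17729 of 62480 sampled bases and 391 of 1244 candidates. These shares lie close together. Genes whose starts are spread over more than 1 kb made up 59.0% of the hosts and 13.8% of all genes with eligible sequence.

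At the 1 kb boundary the members just inside were in F12F6.1, hrg-1, tlk-1, egl-27 and ptr-24, at 1003 to 1022 bp from a start, with signals of 72.9 to 366. Just outside were peaks in M01F1.8, Y54G2A.26, zfp-1, eat-17 and K11D2.4, at 989 to 999 bp, with signals of 83.5 to 551. In all, 409 peaks with a summit in an intron were left out as promoter peaks, and their median signal was 167. A further 103 were left out for a small RNA start within 500 bp (63 tRNA, 31 snoRNA, 9 snRNA), with a median of 228.

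Splice sites were seldom near. Only 17.4% of the peaks lay within 150 bp of one, against 43.7% of eligible bases and 50.2% of candidates below threshold. Longer introns have a smaller share of their bases near a splice site, and the 3 sets differ in intron length. The median intron was 3333 bp for peaks, 907 bp for bases and 794.5 bp for candidates. These shares were not compared within classes of intron length. Within 1 kb downstream of the start of the host lay 14.5% of the peaks and 23.5% of the bases. The median peak was 3374 bp from the start.

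Close neighbours were common. Another peak of the list lay within 1 kb of 28.8% of the intronic peaks (25.4% to 32.3%), against 23.1% of all peaks and 20.6% of promoter peaks. Starts of genes annotated as ncRNA lay within 500 bp of 13.0% of the intronic peaks and of 4.48% of eligible bases. MicroRNA starts did so for 9 peaks, 1.30% against 0.146% of bases, and piRNA starts for 16, 2.32% against 4.13%. The peaks near microRNAs include the one in F09A5.3 at mir-54, with 209 and 294 in the replicates, and 2 in Y67D8A.2 at mir-58a.

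The 691 peaks lay in 471 host genes, or 2.97% of the 15854 protein-coding genes with over 100 eligible bases. The share grew with the eligible sequence of a gene, from 0.305% of genes with under 500 bp to 29.4% of the 354 genes with 10000 bp or more. Hosts had a median of 4.86 kb of eligible sequence and all such genes 0.829 kb. One intronic peak was found in 343 hosts, and 128 hosts with 2 or more held 352. In these counts the 4 peaks that lay in more than 1 gene count for each of those genes.

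Hosts often had a promoter peak too. Of the 471, 216 had one, or 45.9% (41.3% to 50.5%), against 16.2% of all genes with eligible sequence and 15.2% of the genes that are not hosts. The difference was present in every class of eligible length that was examined, and in the class of 10000 bp or more it was 40.4% against 16.8%. The number of annotated starts was not matched. Each start has its own promoter window, and starts were spread over more than 1 kb in 59.0% of hosts. Of all genes with eligible sequence 13.8% had such a spread. In 89 of the 216 the strongest intronic peak was above the strongest promoter peak. The share of hosts with a promoter peak was 35.0% among the stronger 2780 peaks. It moved with the promoter length, since both kinds of peak are set by it.

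Several hosts held a series of intronic peaks. Y56A3A.7 held 6 in 4 of its introns, from the signal of 2383 down to 91.1, and had no promoter peak. pqn-41 held 5, and all lay in its intron 14 of 21, 10372 bp long, between 15446 and 20648 bp from the start. Their signals were 1131, 777, 766, 593 and 331, and no promoter of the gene held a peak. The strongest is 1065 bp before a later start. The second and the weakest share 1 region with separate summits and were matched to the same region of replicate 1, so they are not independent there. In replicate 2 they had 347 and 239.

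T28B11.1 held 6, all in its first intron of 17091 bp, the highest number in 1 intron. The strongest of these was 277 and 320 in the replicates (299 ± 30.7, SD, n = 2) and the weakest 17.5 and 65.4, so the replicates of the weakest differ over 2-fold. The gene also had 2 promoter peaks, the stronger with a pooled signal of 1214. hlh-30, the worm TFEB gene, which governs autophagy and lysosome genes, held 6 in its first and second introns. The strongest of them had 240 and 257 (248 ± 12.02, SD, n = 2), and 3 promoter peaks of the gene reached 320. daf-16, the FOXO transcription factor downstream of insulin signalling, held 6, with 5 in 1 intron of 12401 bp. Its strongest had 207 and 195 (201 ± 7.98, SD, n = 2) and the other 5 ran from 73.2 to 278 in pooled signal.

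daf-5, a Sno/Ski-type protein of the dauer TGF-beta pathway, held 5 and had no promoter peak. Of these, 4 lay in its first intron of 14446 bp, and the strongest had 258 and 165 (212 ± 65.5, SD, n = 2). Hosts of 5 peaks each were also aakg-1, an AMP-activated kinase subunit gene, swah-1, akap-1, F53E4.1, Y67D8A.2, the forkhead gene fkh-7 and ccch-1. lin-14, which sets the timing of first-stage larval fates, held 4, 3 of them in an intron of 11174 bp. The strongest 2 of the 4 had 138 and 83.5 (111 ± 38.4, SD, n = 2) and 114 and 104 (109 ± 7.15, SD, n = 2). A stronger peak, with a pooled signal of 348 at 1.929 kb from the lin-14 start, was left out by the position rule.

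**Figure D3:**
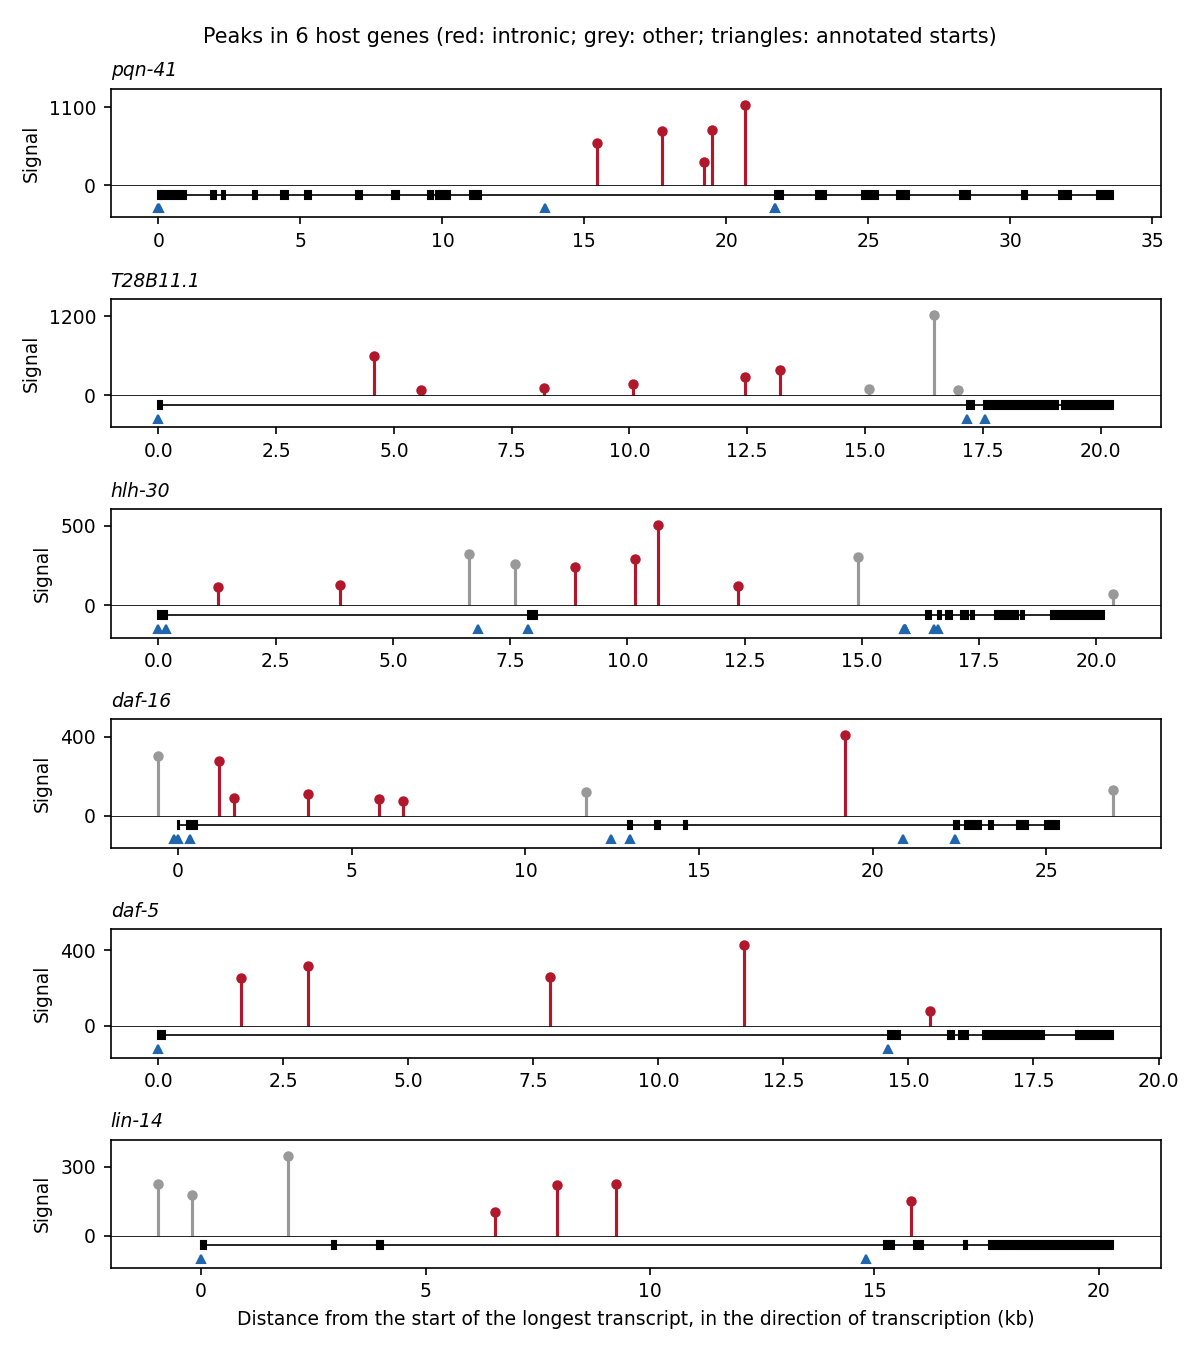
Peak signal (vertical axis, authors' units) against distance from the start of the longest transcript in kb (horizontal axis) for 6 host genes, with intronic peaks in red, other peaks in grey, exons as black boxes and annotated starts as blue triangles. The 5 peaks of pqn-41 and the 6 of T28B11.1 each sit in 1 long intron ahead of a later start.

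Genes of the body wall muscle were frequent hosts. Of 38 with eligible sequence, 13 held 15 intronic peaks, 34.2% of the genes and 87.6 peaks per Mb, against 2.97% and 25.2 per Mb overall. Their median eligible length was 2.37 kb, longer than the 0.829 kb of all genes. The strongest were in unc-15, the paramyosin gene, with 173 and 172 (172 ± 0.800, SD, n = 2), and lev-11, the tropomyosin gene, with 151 and 114 (132 ± 26.3, SD, n = 2). hlh-1, the MyoD-type factor of body wall muscle, held 2 in its second intron. The stronger had 167 and 109 (138 ± 40.7, SD, n = 2), and its window holds the E-boxes CACCTG and CAGCTG. unc-54, the major myosin heavy chain gene, held 1 with 143 in replicate 1 and no region at the summit in replicate 2. The myosin gene myo-3 held no intronic peak but had 1 promoter peak. Among the stronger 2780 peaks 6 of the muscle genes were hosts.

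Hox genes, which pattern the body axis, and Wnt pathway genes, which steer cell polarity and migration, held a few. mab-5, a Hox gene of the posterior body, held 3 in its intron 3 of 4, of which the strongest had 168 and 211 (190 ± 30.7, SD, n = 2). Among the 11 Hox and cofactor genes only unc-62, the Meis-type cofactor, was a host besides it. The Hox genes lin-39 and egl-5 held none, though lin-39 had 3 promoter peaks. Of 27 Wnt pathway genes, 6 held 10 peaks (119.8 per Mb), namely the Dishevelled gene dsh-1, the receptor genes cam-1, lin-17, lin-18 and mig-1, and the beta-catenin gene bar-1. mom-1 was not on this list. Hosts were 18.2% of the Hox and cofactor genes and 22.2% of the Wnt genes. Over all genes with eligible sequence the values were 2.97% and 25.2 peaks per Mb. dsh-1 had 176 and 108 (142 ± 47.8, SD, n = 2), and cam-1 had 129 and 142 (135 ± 9.10, SD, n = 2).

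The TGF-beta list had 4 hosts of 17 genes and 9 peaks, 170.8 per Mb. They were daf-14, a Smad gene, with 220 and 221 (221 ± 1.01, SD, n = 2), daf-5, sma-9, whose 2 peaks share 1 region, and the receptor gene daf-4. Of 14 heterochronic genes 4 were hosts: lin-14, the nuclear receptor gene daf-12, the Period-type gene lin-42 and kin-20. The insulin and FOXO list had 4 of 15: let-363, the worm TOR kinase, with 342 and 266 (304 ± 54.2, SD, n = 2), daf-16, skn-1 and pdk-1. Axon guidance genes were hosts in 11 of 28 cases with 16 peaks (71.0 per Mb) and a long median eligible length of 4.98 kb. The strongest of these were in unc-73, sax-7, sax-3 and the netrin receptor gene unc-5. Of 21 basement membrane genes 5 were hosts, led by gon-1 and let-2, a type IV collagen gene. Host shares in these lists ran from 23.5% (TGF-beta) to 39.3% (axon guidance), at median eligible lengths of 1.74 to 4.98 kb. Over all genes 2.97% were hosts, with 25.2 peaks per Mb. By eligible length that share was 2.23% at 1000 to 2000 bp, 5.43% at 2000 to 5000 bp and 15.2% at 5000 to 10000 bp.

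Of 17 seam and epidermal fate genes 2 were hosts (11.8%) and held 3 peaks (57.6 per Mb), both values above the 2.97% and 25.2 per Mb over all genes. The hosts were elt-1 and egl-18, both GATA factor genes, with strongest signals of 121 and 104. rnt-1 has 9.65 kb of eligible intron sequence, and no region of the candidate list, peak or below threshold, lay in its body. The transgene itself holds rnt-1 sequence, and the sources used here do not say how its reads were placed. bro-1 had 1 candidate and no peak. Of 21 genes of epidermal structure hmr-1, the cadherin gene, and vab-10 were hosts, and of 20 cell cycle genes cyd-1, the cyclin D gene, with 39.8 and 57.6 (48.7 ± 12.6, SD, n = 2).

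The other pathway and tissue lists had at most 2 hosts each, to be read against the 2.97% over all genes. These were klc-2 and unc-14 of 12 axonal transport genes (16.7%), lag-1 and sel-8 of 14 Notch genes (14.3%), and mpk-1 and sos-1 of 20 EGF and Ras genes (10%). They were also unc-43 and dlk-1 of 24 synapse genes (8.33%), tbx-2 of 15 pharynx genes (6.67%) and gld-2 of 26 germline genes (3.85%). unc-43, the calcium/calmodulin-dependent kinase II gene, held 4 in 1 intron of 8328 bp, with pooled signals of 232 to 279. None of 20 intestine genes was a host, but these have only 15.9 kb of eligible sequence in all, and at 25.2 peaks per Mb a count of 0 is near the overall density. The 13 ribosomal protein genes with eligible sequence have 4.31 kb in all, too little for their count of 0 to be read.

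Among gene families, helix-loop-helix genes had 3 hosts of 22 and 9 peaks, 6 of them in hlh-30. Nuclear hormone receptor genes were hosts in 8 of 259 cases and cuticle collagen genes in 2 of 66, near the 2.97% over all genes. Of the ceh homeobox genes 1 of 61, ceh-18, was a host. Chemoreceptor genes, the largest list, had 1 host of 1224, srh-2, and 1.11 peaks per Mb over 0.899 Mb.

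**Figure D4:**
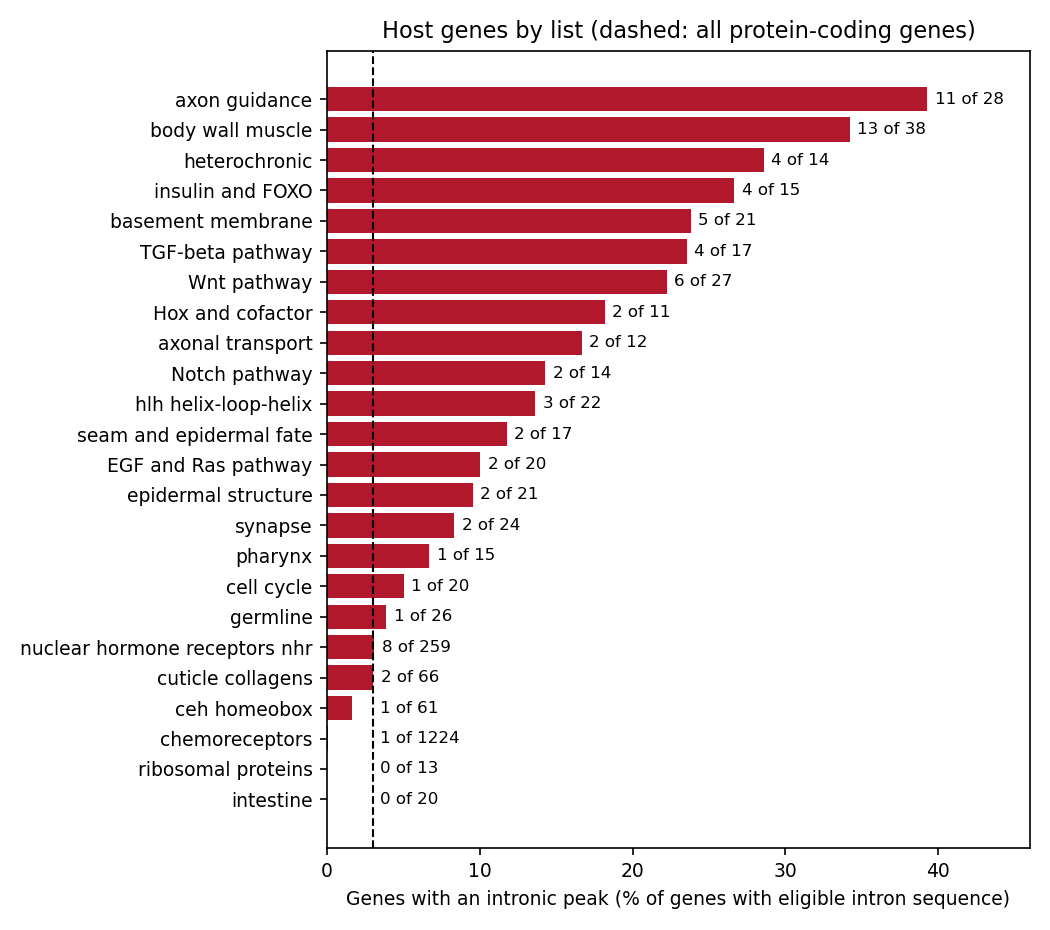
Share of genes with an intronic peak (horizontal axis, percent of the genes of each list that have eligible intron sequence), with the number of hosts and of such genes beside each bar and the 2.97% of all protein-coding genes as a dashed line. Axon guidance (11 of 28) and body wall muscle (13 of 38) have the longest bars, and intestine and ribosomal protein genes, which have little eligible sequence, have none.

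The RUNX core was present at 10.1% of intronic summits (8.0% to 12.6%), as at 10.1% of all 5560. In other sets the core lay in 10.6% of promoter windows, 7.73% of intergenic windows, 7.04% of windows of intronic candidates below threshold and 4.32% of 224269 windows of the same length tiled over eligible introns. Both core forms, TGTGGT and TGCGGT, were searched on both strands. The share at the peaks was 2.34 times that of the tiled windows. Base composition moved with it: the mean GC content was 45.5% in windows of intronic peaks, 40.8% in those below threshold and 32.4% in tiled windows. TGTGGT was 2.19 times as frequent at the peaks as in tiled windows, where the median 6-mer with 3 G or C bases was 1.37 times as frequent, and TGTGGT ranked 483 of the 2080 6-mers. TGCGGT was 2.82 times as frequent, with a median of 1.87 at 4 G or C bases and a rank of 269 of the 2080. What base composition contributes was not tested further.

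Peaks with a core were not the stronger ones. Their median signal was 119, against 140 without a core. By signal, the share with a core was 8.63% in the strongest 139 intronic peaks and 10.9% in the weakest 138. Counted within 25 bp of the summit the share was 5.35%, and within 100 bp it was 16.6%. The 3 strongest intronic peaks with a core were in W06H8.6, C05D9.4 and soem-1. Only 3 peaks held more than 1 core match.

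The repeat GAGAGA was the commonest of the motifs searched. It lay in 232 windows, 33.6% (30.1% to 37.2%), against 29.8% of all peaks, 35.3% of intergenic peaks, 28.8% of promoter peaks, 11.1% of intronic candidates below threshold and 3.90% of tiled intron windows. It ranked 3 of 2080 6-mers by the ratio of intronic peaks to tiled windows. The first was GAGACG, at 17.1% and a ratio of 9.19, and ACGCAG, at 14.2% and 8.17, was the fourth. The octamer printed above holds ACGCAG and the 6-mer ranked next, AGACGC, but not the whole of GAGACG. It lay in 68 windows of intronic peaks (9.84%), 11.8% of promoter windows, 1.63% of windows below threshold and 0.593% of tiled windows. Either the repeat or the octamer lay in 258 windows and both in 42. Peaks with the repeat had a median signal of 158, those without it 132. By intron length the repeat had no steady order: it was least frequent at 500 to 1000 bp (15.5% of peaks) and most frequent at 2000 to 5000 bp (41.3%), with 28.8% up to 500 bp and 41.2% over 10000 bp.

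Repeat content of the sequence also moved with the peaks. The summit lay in bases that the RefSeq genome writes in lower case, the usual mark of repeats and simple sequence, in 15.6% of intronic peaks, 13.2% of promoter peaks and 26.8% of intronic candidates below threshold. Of eligible intron bases 52.6% are so marked. Of the 232 peaks with GAGAGA 40 had such a summit. The sources used here do not say how reads in repeats were handled, and its part in these shares was not tested.

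E-boxes, the sites of helix-loop-helix factors, were also frequent. CAGCTG or CACGTG or CACCTG lay in 18.7% of intronic windows, against 12.1% of promoter windows, 19.2% of intergenic windows and 3.996% of tiled windows. CAGCTG alone had 7.24% against 1.16% of tiled windows. The motif TGATNNAT of Hox and Pbx-type factors lay in 10.9% (8.6% to 13.4%) of intronic windows. The share was 8.51% (7.0% to 10.3%) in intergenic windows, 4.89% in promoter windows and 6.61% in tiled windows. The GATA sites TGATAA and AGATAA lay in 13.2%, close to the 13.6% of tiled windows. Taken singly, AGATAA had a ratio of peaks to tiled windows of 1.26 and TGATAA of 0.769. The median 6-mer with 1 G or C base had 0.507. TAATTA, a homeodomain site, was scarcer at peaks (1.30%) than in tiled windows (5.57%). Its ratio of 0.234 was near the median of 0.247 for 6-mers with no G or C base. No motif of the 14 groups searched lay in 194 windows.

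The windows of the strongest peaks in mab-5 and hlh-1 show these E-boxes, in capitals.
mab-5, chrIII:7780611-7780711: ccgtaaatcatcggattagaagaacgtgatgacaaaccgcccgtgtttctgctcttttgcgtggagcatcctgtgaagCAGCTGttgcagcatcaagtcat
hlh-1, chrII:4520089-4520189: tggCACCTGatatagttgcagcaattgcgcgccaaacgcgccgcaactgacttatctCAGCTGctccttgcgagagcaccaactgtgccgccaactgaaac

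The repeat, the E-boxes and the RUNX cores were densest near the summits. GATA sites were not: their densest bin, at 2.46 per kb, was 220 bp away and the central bin had 1.45 per kb. In the 20 bp centred on the summit GAGAGA matched 8.03 times per kb at intronic peaks and 2.66 times per kb below threshold. At -240 bp from the summit these were 1.09 and 0.651, and at 240 bp they were 1.52 and 1.02. The densest GAGAGA bin at intronic peaks, at 10.1 per kb, was at 40 bp. E-boxes matched 3.11 times per kb at the summit of intronic peaks and 0.860 times below threshold. RUNX cores matched 1.23 times per kb at the summit of intronic peaks and 0.627 times below threshold. The central bin below threshold was lower than the bins at -40 and -20 bp, which had 0.906 and 0.848. A bin spans only 20 bp of each window, so single RUNX bins rest on few matches at the 691 intronic peaks. The densest RUNX bin at intronic peaks, at 1.30 per kb, was 20 bp from the summit. Bins centred 160 to 240 bp away on either side ran from 0.289 to 0.868 per kb.

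**Figure D5:**
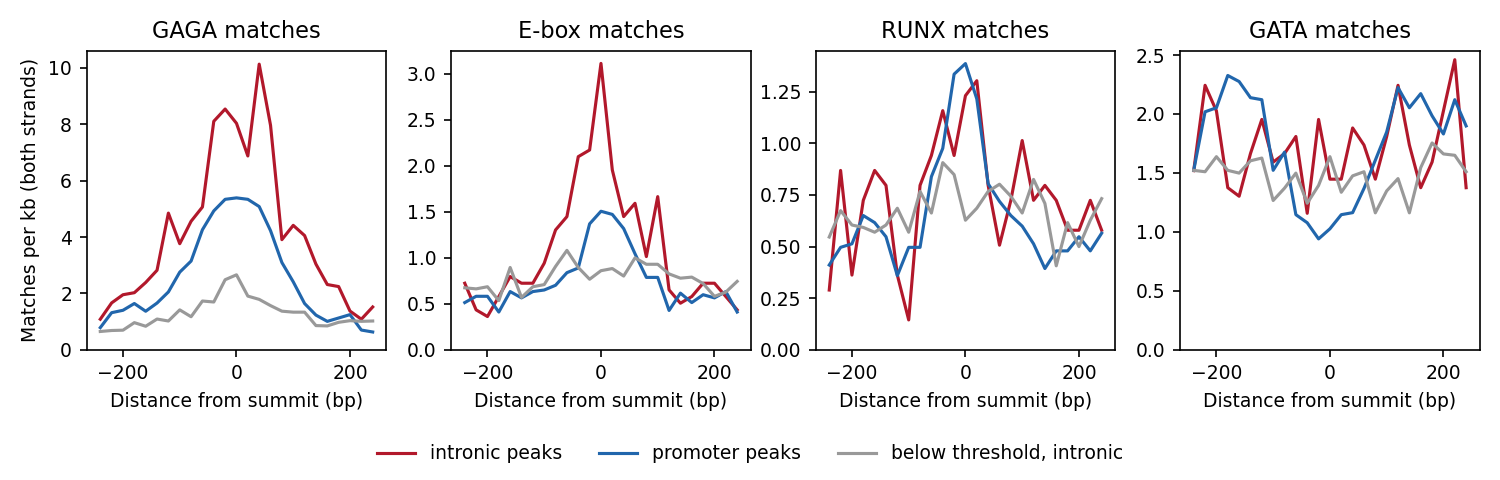
Matches per kb on both strands (vertical axis) in bins of 20 bp by distance from the summit in bp (horizontal axis) for GAGAGA, E-boxes, RUNX cores and GATA sites, at intronic peaks (red), promoter peaks (blue) and intronic candidates below threshold (grey). In the red curves GAGAGA, E-boxes and RUNX cores have 8.03, 3.11 and 1.23 per kb in the central bin. GATA sites have 1.45 per kb there, below their 2.46 per kb at 220 bp. GAGAGA is highest at 40 bp, at 10.1 per kb, and RUNX cores at 20 bp, at 1.30 per kb.

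Intronic peaks were denser on the X chromosome than on any autosome. X held 156 of them, 22.6%, at 34.0 per Mb of eligible sequence, against 23.5 per Mb on the autosomes, a ratio of 1.45. The autosomes ran from 18.1 per Mb on V to 25.8 on III. Candidates below threshold had 197.3 per Mb on X and 149.1 on the autosomes. X also held 21.9% of all 5560 peaks.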

How the data were processed

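The data were anti-GFP ChIP-seq of 2 biological replicates of whole L1 larvae, in 1 group, and a control library was not analysed here. The authors deposited narrowPeak lists with a signal, a −log10 q value and a summit for each region, per the file headers and labels. The sources used here name no aligner and no peak caller. The optimal list is the top of the pooled candidates by the deposited signal, so a peak need not be present in each replicate, and the deposited −log10 q values were only carried along. Lists on ce10 were not used.

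Summits were placed against Ensembl release 115 (WBcel235, the ce11 sequence) with Python 3.11.15, numpy 2.4.6, pandas 2.3.3 and scipy 1.17.1. For values of the intron, the host is the smallest protein-coding gene whose transcript intron holds the summit. In counts of host genes, the 4 peaks that lay in more than 1 gene count for each. Replicate values were read from the region of a replicate that contains the summit. Position classes were checked against a second method at 400 random positions, with 400 alike, and the motif search found 500 of 500 planted cores. Base shares use every 100th eligible base.

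No p-values were computed, because 1 group of 2 replicates has no contrast and regions are not replicates. Intervals cover counting error only. The members, gene lists and motifs were chosen with earlier results of these data known. Named genes are hosts of the 15 strongest peaks, the hosts with the most peaks, up to 4 strongest hosts per list, up to 3 strongest peaks per motif group, the widest replicate ratios, unmatched peaks, the peaks nearest the promoter boundary and 9 fixed genes. Other names were added after their values were seen. Alternatives were other promoter lengths, whole regions, merged summits, the stronger 2780 peaks, other windows and each replicate alone. The sequence of 1 summit window is not reported here.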

Additional observations from a re-analysis of the deposited data

How the results depend on the processing

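Of 61 alternative values for 10 results, 38 were classed as the same as the reported value and 23 as moved. The intronic share was 14.8% with a promoter of 500 bp, 9.37% with 2 kb, 9.91% when the whole region had to lie in the intron, 14.3% without the small RNA exclusion and 9.75% in the stronger 2780 peaks. The share found in both replicates was 58.9% with 50% reciprocal overlap. First introns of any transcript held 48.9%. Host genes, 471 in the main count, numbered 554 at 500 bp, 361 at 2 kb and 372 with whole regions. These counts were classed as the same, though they differ from 471 by more than counting error. The stronger peaks had 223 host genes and 6 muscle hosts. Hosts with a promoter peak were 37.0% at 500 bp, 59.0% at 2 kb and 35.0% in the stronger peaks. The RUNX share was 5.35% within 25 bp and 16.6% within 100 bp of the summit, and its ratio to introns 2.58 and 1.93, with 2.05 in the stronger peaks. The ratio of X to autosomes was 1.43 at 500 bp, 1.52 at 2 kb and 1.21 in the stronger peaks. The causes were not tested.

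With 1 replicate left out, taking the 5560 strongest regions of the other, the RUNX ratio was 2.13 to 2.27 and the ratio of X to autosomes 1.31 in both cases. No paired analysis was possible because there is only 1 group. Read depth, unknown here, limits how firmly weak peaks can be placed on either side of the threshold, and where no candidate lies in a gene its signal is only known to be below that of the last candidate.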
